A study of Rattus norvegicus with 48 samples.

Results

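The hnRNP and SR genes of the rat lung were examined in animals that had breathed oil vapor or filtered air. Members were all rows of both count tables whose symbol starts with Hnrnp or Srsf and whose mean level over the 48 libraries was at least 1 CPM (counts-per-million, from the library total). This gave 30 genes of the 30045 rows, 18 hnRNP and 12 SR genes, and no row with such a symbol fell below the minimum. Srsf12 lay just inside it, at a mean of 1.09 CPM. The gene listed under the older symbol Hnrpd does not start with either prefix and was no member.

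The animals were male Sprague-Dawley rats and the labels name no genetic change. They were housed in pairs and exposed in a whole-body chamber. The single schedule was 6 h on 1 day, and the repeated schedule 6 h a day on 4 days a week for 4 weeks, or 16 exposure days. On each schedule 1 set of rats breathed filtered air (0 ppm) and 1 set oil vapor at 300 ppm, and lungs were taken 1 or 28 days later. Each of the 8 groups held 6 animals, sequenced as 1 library apiece. Total RNA of a piece of whole lung was depleted of ribosomal RNA and sequenced with a stranded kit. In such bulk samples, fewer cells of a type and less RNA per cell cannot be told apart. Animals at 28 days were also older than those at 1 day, and on the repeated schedule the air controls differed from single-schedule controls in age, chamber days and count table at once.

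Heterogeneous nuclear ribonucleoproteins (hnRNPs) coat nascent transcripts, and many of them bind RNA through RNA recognition or KH domains. SR proteins carry a domain rich in arginine and serine and help the spliceosome to recognise exons, and they often act against hnRNPs at the same splice sites. SR protein activity is set by phosphorylation through the SRPK and CLK kinases, and many genes of both families limit their own level by splicing in exons that send the transcript to decay. Hnrnpa2b1 encodes hnRNP A2 and B1, abundant nuclear proteins that bind exonic and intronic elements, act in splicing and transport RNA. Its closest relatives here are Hnrnpa1 and Hnrnpa3.

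Library totals ranged from 1.54 M to 7.16 M counts (M for mega), with a median of 5.24 M. The limit set by an undetected gene, 3 counts, lay between 0.419 and 1.95 CPM. It reflects counting error alone, as PCR copies cannot be told from separate molecules here. All 9 lung marker genes were detected, and their summed level was at least 14393 CPM in every library except that of animal 43, a repeated oil vapor animal at 1 day, where it was 7562 CPM. That library was also the shallowest and held 43866 CPM of erythroid transcripts, against 14297 CPM in animal 5 (single oil vapor, 1 day) and at most 9023 CPM in the other 46 libraries. Each of the 120 library pairs within groups had a chi-square per degree of freedom of at least 2.70, above sampling noise.

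A check across the 2 count tables found animals that matched in some genes. Ordering the animals of a group by number and pairing first with first, second with second and so on between the schedules gave 24 pairs of different animals. This pairing was chosen after the data were seen, and no test of Alas2 was planned. The permutation p-values below therefore describe the match and are no independent support for it. Alas2 encodes the heme synthesis enzyme of red cell precursors and is part of every erythroid sum given here. It had 27026 counts in animal 5 and 30019 in animal 43, whose libraries held 4.74 M and 1.54 M counts. Over the 24 pairs, log2(CPM + 1) of Alas2, centred within groups, correlated with Pearson r = 0.97 (permutation p = 2e-05, adjusted p = 4e-05). Spearman rho was 0.98 at the same permutation p, the smallest that 100000 permutations can give. Dropping the 2 pairs most distant from the median left r = 0.97. In log2 of the raw counts the match of Alas2 was closer, with r = 0.997. In CPM, of 10792 genes with a mean count of at least 50, 95 had a pair r over 0.9 and 0 had one under -0.9, with a median of 0.19.

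No member reached such a value. The pair r of the 30 members ranged from -0.23 (Hnrnpdl) to 0.64 (Hnrnpul1) in CPM, with a median of 0.19. For Hnrnpa2b1 the answer depended on the scale. In CPM, r was -0.10 (permutation p = 0.65, adjusted p = 0.65). The corresponding rho was -0.12 (permutation p = 0.58, adjusted p = 0.58), and r was -0.30 after dropping the 2 most distant pairs. In log2 of the raw counts, which carry the depth of each library, r was 0.50 (permutation p = 0.012, adjusted p = 0.016). There rho was 0.43 (permutation p = 0.035, adjusted p = 0.0467), and r was 0.41 after the same removal. On raw counts the median r was 0.39 over the members, with a highest of 0.55, and 0.33 over the 10792 genes. The value of Hnrnpa2b1 was thus not particular to it. The 4 relations, 2 genes on 2 scales, were adjusted together, and not over the 10792 genes looked through. What links the 2 tables was not tested. Comparisons within a schedule use 1 table only, whereas comparisons between schedules set both tables against each other and treat their animals as independent.

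Hnrnpa2b1 was lowest in the air lungs taken 1 day after the repeated schedule. In that group its level was 198, 172, 183, 170.3, 197 and 229.7 CPM in animals 34, 36, 37, 38, 39 and 40. The matching oil vapor lungs had 207 CPM in animal 43, 239 in animal 44, 275 in animal 45, 236 in animal 46, 238 in animal 47 and 280.1 in animal 48. Of these 6 oil vapor animals 5 lay above every air animal, and animal 43 lay below air animal 40. At 28 days the air lungs of this schedule had 315, 272, 240.3, 267, 262 and 308 CPM in animals 82, 83, 84, 86, 87 and 88. All of these exceeded all air lungs at 1 day. The oil vapor lungs at 28 days had 308, 243, 234, 293, 251 and 269 CPM in animals 89, 91, 92, 93, 94 and 96, and overlapped the air lungs of the same day.

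After the single exposure, the air lungs at 1 day fell apart into high and low values. Animals 1, 2, 3 and 4 had 262, 255, 306 and 303 CPM, and animals 9 and 10 had 165 and 178 CPM. Oil vapor lungs at 1 day had 162 CPM in animal 5, 198 in animal 6, 268 in animal 7, 233 in animal 13, 239 in animal 14 and 234 in animal 16. They lay largely between the high and the low air animals. At 28 days the spread was small, with a lowest, median and highest level of 231, 253 and 266 CPM in air and of 215, 247 and 269.9 CPM in oil vapor. Animal 9 also had the highest ribosomal protein sum (5822 CPM) and the most erythroid transcripts (6681 CPM) of its group, and animal 5 the highest of both in its own (6232 and 14297 CPM). Their part in the low Hnrnpa2b1 values was not tested.

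**Figure D1:**
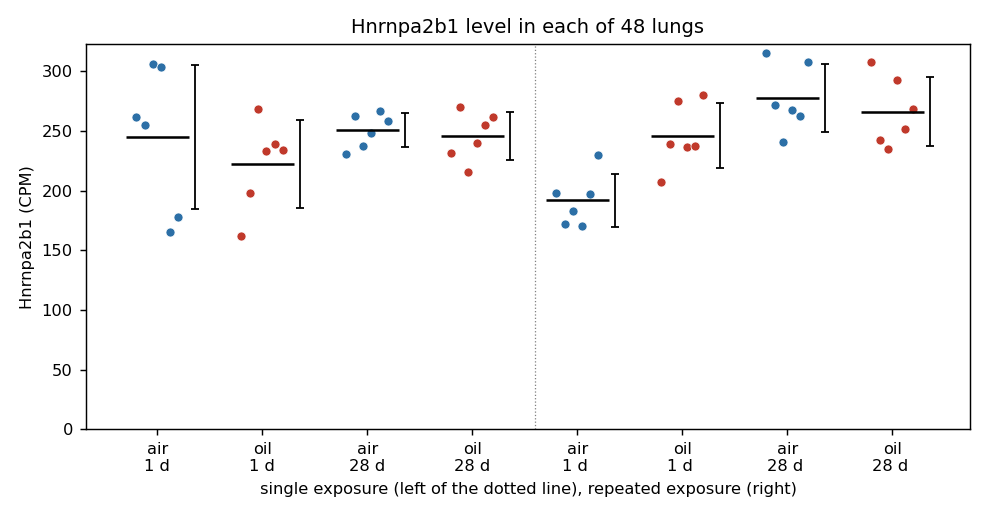
Level of Hnrnpa2b1 (y axis, CPM) in each of 48 lungs, by group (x axis, single schedule left and repeated schedule right of the dotted line, air in blue, oil vapor in red); black lines are means and the bars beside them 1 SD (n = 6). Repeated air lungs at 1 day sit between 170.3 and 229.7 CPM, and single air lungs at 1 day split into animals at 255 CPM or more and a pair at 165 and 178 CPM.

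In order of the group mean, Hnrnpa2b1 stood at 277 ± 28.6 CPM (SD, n = 6) in repeated air at 28 days, 266 ± 28.96 in repeated oil vapor at 28 days, 251 ± 14.4 in single air at 28 days, 246 ± 27.3 in repeated oil vapor at 1 day, 246 ± 20.4 in single oil vapor at 28 days, 245 ± 60.5 in single air at 1 day, 222 ± 37.1 in single oil vapor at 1 day and 192 ± 22.1 in repeated air at 1 day. Each neighbouring pair in this order differed by less than or about 1 SD. The lowest group lay apart from the repeated air group at 28 days without overlap, and how many of all genes do so was not computed.

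Promoters of Hnrnpa2b1, of Hnrnpul2, whose level followed it most closely, and of Srsf7, which came next to it by p in the repeated 1-day oil vapor contrast, are shown to let a reader compare the regions at which these transcripts start. The promoter of Cbx3, the gene on the other strand beside Hnrnpa2b1, is given as its neighbour. Each window runs from 250 bases before to 50 after the start in the RefSeq annotation of the assembly GRCr8, 5′ to 3′ on the gene's strand, and capitals mark matches on either strand to 4 motifs, the GC box GGGCGG, the CCAAT box, the ETS core CCGGAAG and the CRE core TGACG.
Hnrnpa2b1 (chr4:81875837-81876136, minus strand): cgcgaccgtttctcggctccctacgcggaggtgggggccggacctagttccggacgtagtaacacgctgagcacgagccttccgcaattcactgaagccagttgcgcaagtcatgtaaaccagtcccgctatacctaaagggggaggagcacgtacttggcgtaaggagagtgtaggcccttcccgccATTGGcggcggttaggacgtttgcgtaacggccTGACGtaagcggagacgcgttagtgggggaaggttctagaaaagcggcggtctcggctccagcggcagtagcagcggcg
Hnrnpul2 (chr1:215142500-215142799, plus strand): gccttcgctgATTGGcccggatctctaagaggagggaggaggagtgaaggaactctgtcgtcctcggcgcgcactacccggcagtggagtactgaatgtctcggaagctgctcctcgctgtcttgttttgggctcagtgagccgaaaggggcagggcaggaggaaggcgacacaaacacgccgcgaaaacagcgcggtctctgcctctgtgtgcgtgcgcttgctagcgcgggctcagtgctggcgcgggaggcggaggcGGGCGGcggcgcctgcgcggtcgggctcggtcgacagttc
Srsf7 (chr6:20563802-20564101, plus strand): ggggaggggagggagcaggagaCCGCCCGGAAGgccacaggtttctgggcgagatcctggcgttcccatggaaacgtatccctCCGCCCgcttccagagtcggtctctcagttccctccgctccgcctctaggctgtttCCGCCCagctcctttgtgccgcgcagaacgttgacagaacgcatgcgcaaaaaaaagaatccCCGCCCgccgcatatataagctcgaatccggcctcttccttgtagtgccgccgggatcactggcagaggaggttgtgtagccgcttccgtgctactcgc
Cbx3 (chr4:81876429-81876728, plus strand): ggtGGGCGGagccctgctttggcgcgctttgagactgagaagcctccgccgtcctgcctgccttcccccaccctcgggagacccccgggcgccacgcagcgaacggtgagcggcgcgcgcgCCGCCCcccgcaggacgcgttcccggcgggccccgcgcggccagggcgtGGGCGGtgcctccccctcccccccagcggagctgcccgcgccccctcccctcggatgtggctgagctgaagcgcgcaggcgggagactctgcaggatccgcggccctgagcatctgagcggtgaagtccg

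The Hnrnpa2b1 window held 1 CCAAT match and 1 CRE core, and 0 matches to the GC box or the ETS core. The Hnrnpul2 window held 1 GC box and 1 CCAAT match. Srsf7 had 4 GC boxes and 1 ETS core that overlaps 1 of them, and Cbx3 had 3 GC boxes. RefSeq windows were found for 28 of the 30 members, 32 windows in all since some genes have several. A GC box was present in 75% of these windows and in 33.1% of all 33469 windows, CCAAT in 71.9 and 37.5%, the CRE core in 56.2 and 21.2%, and the ETS core in 21.9 and 8.75%. The median GC content was 64.3% against 51.7%, with a median of 28.5 against 7 CpG pairs, and the part of base composition in these shares was not tested. A match describes the letters only.

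The contrast of oil vapor with air 1 day after the repeated schedule asked whether 16 exposure days left a difference in these genes. Hnrnpa2b1 had the largest positive value, but no member passed the test over all genes. Of 29 members tested, 23 had higher and 6 lower values. The members' median was 0.10 in log2 units, and that of all 15005 genes 0.02. This split depends on the scaling. With library totals in place of TMM size factors, the scale of the CPM values, 17 members were higher and 12 lower, with a median of 0.033. RLE size factors left it at 23 higher and 6 lower. Without animal 43 there were 22 higher and 7 lower, but the median was 0.040. Hnrnpa2b1 had a log2 fold change of 0.44 (SE 0.09, adjusted p = 0.0989 by the quasi-likelihood test of edgeR, adjusted after Benjamini and Hochberg). Srsf7, an SR protein with a zinc knuckle that also acts in messenger RNA export, had 0.31 (SE 0.07, adjusted p = 0.173). Hnrnpul2, an hnRNP U-like protein, had 0.35 (SE 0.09, adjusted p = 0.173).

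By that test 0 of 29 members were called, and 0.00666% of all genes were called. At an unadjusted p below 0.05 there were 6 members, all higher, against 5.8% of all genes higher and 3.49% lower. Beside the 3 above these were the SR gene Srsf4 at 0.24 (SE 0.09), Hnrnpm at 0.22 (SE 0.10) and Hnrnpa1 at 0.21 (SE 0.10). DESeq2 and limma-voom each called 3 members, Hnrnpa2b1, Srsf7 and Hnrnpul2, and a fit with 1 surrogate variable called Hnrnpa2b1 alone. The shares of all genes called by these alternatives are not given, so these counts cannot be set against them. No member was called with RLE size factors, no filter, library totals or other library sets. The adjusted p of Hnrnpa2b1 was 0.00246 with DESeq2, 0.0234 with limma-voom and 0.0331 with the surrogate variable. Leaving out 1 animal in turn gave an adjusted p between 0.0388 (without animal 43) and 0.295, with a log2 fold change between 0.41 and 0.51.

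Animal by animal, Hnrnpul2 was 118, 102, 114, 105, 116 and 133 CPM in repeated air animals 34, 36, 37, 38, 39 and 40 at 1 day. It was 98.9 CPM in oil vapor animal 43 and 154, 154, 135, 143 and 150.3 CPM in animals 44, 45, 46, 47 and 48. Animal 43 was thus the lowest of all 12 and the others the 5 highest. Srsf7 was 73.7, 70.0, 71.8, 66.5, 68.8 and 59.0 CPM in the air animals and 63.8, 69.3, 83.7, 84.6, 86.5 and 92.2 CPM in the oil vapor animals, in the same order. Oil vapor animals 45 to 48 lay above all air animals, and animals 43 and 44 among them. Animal 43 also had a ribosomal protein sum of 9385 CPM, where its group had a median of 5307 CPM.

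Markers of other cells also differed in this contrast, although none was called. Erythroid genes were higher in 10 of 10 (8 at an unadjusted p below 0.05), and their sum ranged from 2156 to 4937 CPM in air and from 1672 to 43866 CPM in oil vapor lungs. That sum includes Alas2, whose level matched between the count tables, so it is an uncertain measure of red cells. Neutrophil genes were higher in 7 of 7 tested (4 at that p), with sums of 99.6 to 191 and 112 to 783 CPM, and T and B lymphocyte genes in 11 of 11 (2 at that p), with sums of 96.2 to 175 and 126 to 296 CPM. Liver genes were higher in 5 of 6 tested, all 5 at that p, with sums of 120 to 198 CPM and 116 to 1005 CPM. Animal 43 had the highest sum of its group in all 4 lists, and no marker of these lists was at 0 in all libraries. Without that animal the log2 fold change of Hnrnpa2b1 was 0.41, and the part of these cells in it was not tested.

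The relatives of Hnrnpa2b1 had smaller values. Hnrnpa3 stood at 269 ± 44.9 CPM in oil vapor lungs and at 262 ± 15.4 CPM in air lungs (SD, n = 6), a log2 fold change of 0.11 (SE 0.06, adjusted p = 0.544 by edgeR). Hnrnpa1 averaged 161 ± 14.5 and 148 ± 13.6 CPM, with an adjusted p of 0.512 by edgeR. RefSeq lists 50 pseudogenes of Hnrnpa1 in the rat, 10 of Srsf3, 7 each of Hnrnpk and Srsf7 and 6 of Hnrnpc, so that reads of these members can be shared with near-identical copies and their counts are uncertain.

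**Figure D2:**
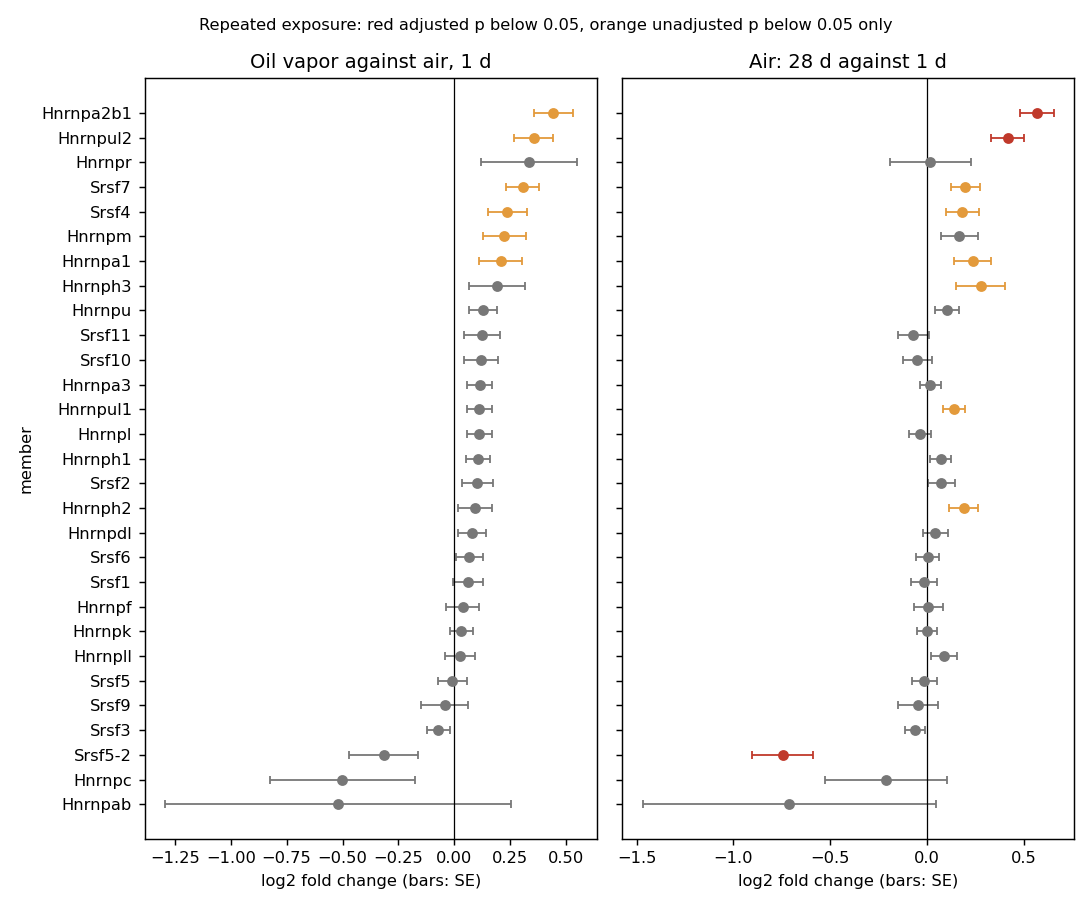
Log2 fold change (x axis) of 29 members (y axis) on the repeated schedule, for oil vapor against air at 1 day (left) and for air lungs at 28 days against 1 day (right); points are estimates, bars 1 SE, red marks an adjusted p below 0.05 and orange an unadjusted p below 0.05 only. Hnrnpa2b1 is the highest point in both panels, at 0.44 and 0.57, and both panels use the same air lungs at 1 day.

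Hnrnpa2b1 was also set against the rest of the family. The other 29 members together made up 4973 ± 147 CPM (SD, n = 6) in repeated air and 5016 ± 422 CPM in repeated oil vapor lungs at 1 day, or 5171 CPM in the latter without animal 43. Hnrnpa2b1 counts equalled 3.85 ± 0.355% of theirs in air, with a range of 3.51 to 4.48%, and 4.90 ± 0.240% in oil vapor, with a range of 4.64 to 5.21%. This ratio needs no scaling to library size, and on it the groups did not overlap, animal 43 included. It is a description of a gene chosen with the result known, and no test is given.

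The same ratio was 5.50 ± 0.587% in repeated air and 5.33 ± 0.502% in repeated oil vapor lungs at 28 days. After the single exposure it was 4.99 ± 1.13% in air and 4.43 ± 0.610% in oil vapor at 1 day, and 5.10 ± 0.355% and 4.85 ± 0.384% at 28 days. Single air lungs at 1 day had the widest range, from 3.48 to 6.12%, which spans the values of both repeated groups at 1 day. All members together took between 0.445% (animal 43) and 0.573% of a library's counts.

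**Figure D3:**
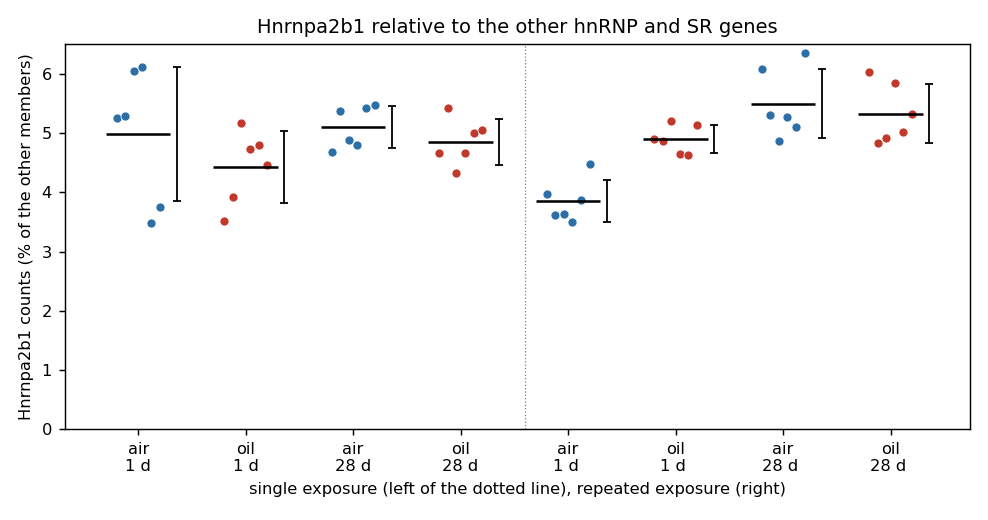
Counts of Hnrnpa2b1 as a percent of the summed counts of the other 29 members (y axis) in each of 48 lungs, by group (x axis, colours, mean lines and SD bars as for the levels in CPM). Repeated air lungs at 1 day range from 3.51 to 4.48% and repeated oil vapor lungs at 1 day from 4.64 to 5.21%.

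The remaining oil vapor contrasts gave no call among the members. At 1 day after the single exposure edgeR called 0 of 29 members and 0% of all genes, with DESeq2 and limma-voom also at 0 members. At an unadjusted p below 0.05 there were 3 members higher and 1 lower, where 4.64% of all genes were higher and 5.45% lower. These were Hnrnpk at 0.11 (SE 0.04, adjusted p = 0.372 by edgeR), Hnrnpl at 0.14 (SE 0.05), Srsf5 at 0.13 (SE 0.06) and Srsf2 at -0.11 (SE 0.05). Hnrnpk binds C-rich RNA through KH domains, and Srsf2 is an SR protein that stays in the nucleus. Hnrnpa2b1 had a log2 fold change of -0.14 (SE 0.12, adjusted p = 0.787 by edgeR).

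At 28 days after the single exposure edgeR again called 0 members and 0% of all genes, as did DESeq2 and limma-voom among the members. Only Srsf9 had an unadjusted p below 0.05, at 0.29 (SE 0.10, adjusted p = 0.434 by edgeR), where 3.8% of all genes were higher and 4.41% lower. All 6 oil vapor animals lay above all 6 air animals in Hnrnph1, at a mean of 407 against 378 CPM, yet its adjusted p was 0.623 by edgeR. The share of all genes that lie apart in this way was not computed. Hnrnpa2b1 had a value of -0.05 (SE 0.12). At 28 days after the repeated schedule edgeR called 0 members and 0% of all genes, and 0 members had an unadjusted p below 0.05, where 2.67% of all genes were higher and 2.19% lower. DESeq2 and limma-voom called 0 members there. Hnrnpa2b1 had a value of -0.07 (SE 0.09), and Srsf5, the member with the smallest p, -0.11 (SE 0.07).

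The difference between 28 and 1 day in air lungs of the repeated schedule was the largest for Hnrnpa2b1 among the comparisons of a pair of groups. Hnrnpa2b1 rose by 0.57 in log2 units (SE 0.09, adjusted p = 0.00764 by edgeR), from 192 to 277 CPM on average, and was higher in 6 of 6 animals than in any animal at 1 day. The share of all genes without overlap between these groups was not computed. Hnrnpul2 rose by 0.42 (SE 0.09, adjusted p = 0.0319 by edgeR). Srsf5-2, a second row beside Srsf5 with no match in RefSeq, fell by 0.75 in log2 units (SE 0.16, adjusted p = 0.0336 by edgeR). It went from 12.2, 14.1, 11.8, 17.3, 14.8 and 11.3 CPM at 1 day to 5.65, 10.9, 10.2, 6.29, 8.38 and 6.17 CPM at 28 days, without overlap. Thus 2 members were called higher, where 0.267% of all genes were, and 1 lower, where 0.06% were. Markers of some other cells had higher values in the same comparison, with no neutrophil or liver gene called. Erythroid sums had a median of 2506 CPM at 1 day and 3994 CPM at 28 days. Other sums had lower medians at 28 days, 146 against 179 CPM for dividing cells and 126 against 132 CPM for T and B lymphocytes. Neutrophil genes were higher in 7 of 7 tested (3 at an unadjusted p below 0.05), with sums of 99.6 to 191 CPM at 1 day and 167 to 263 CPM at 28 days. Liver genes were higher in 6 of 6 tested (4 at that p), with sums of 120 to 198 and 130 to 1004 CPM. Animal 82 had both the highest liver sum and the highest Hnrnpa2b1 level of its group. Without animal 82 Hnrnpa2b1 differed by 0.54 (adjusted p = 0.0397 by edgeR), and the part of these cells was not tested.

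Hnrnpa2b1 passed the test without each of the 12 animals in turn, with an adjusted p between 0.00154 and 0.0437. Hnrnpul2 passed without 3 of the 12 animals (40, 83 or 84) and Srsf5-2 without 4 of them (34, 40, 83 or 84), with adjusted p-values up to 0.11 and 0.118. Srsf5-2 also missed the threshold with no filter (adjusted p = 0.051) and in a fit of only the 12 libraries (0.0516). With library totals in place of size factors Hnrnpul2 (0.167) and Srsf5-2 (0.0946) both missed it. This comparison and the oil vapor contrast at 1 day share the repeated air lungs at 1 day, in which Hnrnpa2b1 was lowest. A low value in those lungs raises both fold changes, so they are not separate evidence. The comparison of air lungs between schedules and both interactions with the repeated 1-day contrast use the same lungs. Oil vapor lungs of the same schedule had a Hnrnpa2b1 value of 0.05 (SE 0.09, adjusted p = 0.839 by edgeR) between 28 and 1 day. In them edgeR called 0 members, where 0.247% of all genes were higher and 0.0933% lower. At an unadjusted p below 0.05 there were 3 members, all lower, Hnrnpl, Srsf11 and Srsf10, where 15% of all genes passed. DESeq2 and limma-voom called 0 members.

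After the single exposure, time made little difference to Hnrnpa2b1, with values of 0.05 (SE 0.12) in air and 0.13 (SE 0.12) in oil vapor. In oil vapor lungs Hnrnpk fell by 0.14 in log2 units (SE 0.04, adjusted p = 0.0267 by edgeR), from a range of 437 to 509 CPM at 1 day to 413 to 462 CPM at 28 days, and the groups overlapped. It was the only member called by edgeR, where 4.45% of all genes were higher and 4.98% lower, so that 1 of 29 members is below the share of all genes. The call was lost without animals 6, 7, 16, 24 or 27, with adjusted p-values up to 0.0729, and with library totals in place of size factors (0.076). Summed transcripts of dividing cells had a median of 291 CPM in oil vapor lungs at 1 day and 142 CPM at 28 days, with no overlap of the groups. By edgeR 10 of 12 dividing-cell, 6 of 10 erythroid, 2 of 7 neutrophil and 4 of 6 liver genes fell, and their part in the Hnrnpk difference was not tested. In air lungs edgeR called 0 members, where 1.01% of all genes were higher and 2.24% lower. Hnrnph3 alone had an unadjusted p below 0.05, at 0.31 (SE 0.10, adjusted p = 0.11), where 15.5% of all genes passed. DESeq2 and limma-voom called 0 members, and a fit with 1 surrogate variable called Hnrnph3.

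Whether the oil vapor effect differed with time or schedule was tested directly, and no such difference passed by edgeR. On the repeated schedule the effect on Hnrnpa2b1 at 28 days minus that at 1 day was -0.52 (SE 0.12, adjusted p = 0.18 by edgeR). DESeq2 called it, with an adjusted p of 0.0167, as the only member. By edgeR 0 members and 0.00666% of all genes passed, and 7 members had an unadjusted p below 0.05, where 7.8% of all genes did. The effect after the repeated minus the single exposure at 1 day was 0.58 for Hnrnpa2b1 (SE 0.16, adjusted p = 0.166 by edgeR). Leaving out 1 animal in turn left it uncalled in 23 of 24 fits, with adjusted p-values up to 0.363 by edgeR. Without air animal 9 the adjusted p was 0.0379 by edgeR. DESeq2 and limma-voom did not call Hnrnpa2b1 there. For Srsf7 this difference was 0.40 (SE 0.11, adjusted p = 0.145 by edgeR), which DESeq2 and limma-voom called. The shares of all genes called by DESeq2 and limma-voom in these interactions are not given. In that interaction 0 members and 0.0457% of all genes passed by edgeR, and 6 members had an unadjusted p below 0.05, where 9.74% of all genes did.

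The corresponding interaction at 28 days gave 0 members and 0% of all genes by edgeR, with 3 members at an unadjusted p below 0.05, where 5.2% of all genes were, and 0 members by DESeq2 and limma-voom. The interaction with time after the single exposure gave 0 members and 0% of all genes by edgeR, with 0 members at an unadjusted p below 0.05, where 7.83% of all genes were, and 0 members by DESeq2 and limma-voom. Hnrnpa2b1 stood at -0.02 (SE 0.16) and 0.08 (SE 0.17) in these.

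Air lungs of the 2 schedules were compared with each other to place the low group, although schedule, age and count table cannot be told apart there. At 1 day Hnrnpa2b1 fell by 0.37 in log2 units on the repeated schedule (SE 0.11, adjusted p = 0.047 by edgeR). It was the only member called, where 1.15% of all genes were higher and 2.61% lower. The call was lost without 9 of the 12 animals in turn, with adjusted p-values between 0.00619 (without animal 9) and 0.199 (without animal 4), and with RLE size factors (0.0508), library totals (0.076) or no filter on low counts (0.071). In the same comparison 7 of 12 dividing-cell genes fell, with sums of 228 to 322 CPM on the single and 137 to 229 CPM on the repeated schedule, and their part was not tested. Srsf7 had a value of -0.23 (SE 0.07, adjusted p = 0.0683 by edgeR) and Srsf4 -0.27 (SE 0.09, adjusted p = 0.0849 by edgeR). At 28 days Hnrnpa2b1 had a value of 0.15 (SE 0.11, adjusted p = 0.772 by edgeR). There edgeR called 0 members, where 0% of all genes were higher and 0.0457% lower, with 2 members at an unadjusted p below 0.05, where 8.67% of all genes were. DESeq2 and limma-voom called 0 members.

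Hnrnpul2 was the gene whose level across animals was most like that of Hnrnpa2b1. Likeness was measured as Pearson r of log2(CPM + 1), centred within the 8 groups, over 48 libraries that share depth and RNA quality within an animal, and is given as a description. The value was 0.84 for Hnrnpul2, 0.80 for the scaffold attachment factor Safb, 0.79 for the protein disulfide isomerase Pdia3, 0.79 for the proteasome ATPase Psmc3 and 0.77 for the ribosome assembly factor Nop14. Among the members, Hnrnph3 followed at 0.64, Hnrnpu at 0.63, Hnrnpa1 at 0.58 and Hnrnpul1 at 0.51. Srsf7 reached 0.13, and the neighbour Cbx3 0.14. The order below Hnrnpul2 (0.83) changed without animals 5 and 43, where Ncl (0.82) and Eif3a (0.79) came next, Safb had 0.77, Pdia3 0.74, Psmc3 0.75 and Nop14 0.73, and Hnrnpu (0.53) lay below Hnrnpa1 (0.60). Within single air lungs at 1 day, Hnrnpul2, Safb, Pdia3, Psmc3 and Nop14 were each lowest in animals 9 and 10, whereas Srsf7 was lowest in animal 1. Hnrnpul2 and the genes named with it were picked by r over libraries that include these, so their low values here add nothing to the likeness. Hnrnpul2 was 111 and 100.5 CPM in animals 9 and 10 and at least 133 CPM in the other animals, and Pdia3 was 269.8 and 281 CPM against at least 337 CPM. Cbx3 had 56.2 and 64.1 CPM in animals 9 and 10, within or above the other animals at 52.7 to 62.6 CPM.

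Over the 14 comparisons, 18 of the 29 members tested had an unadjusted p below 0.05 at least once and 11 never did. The matching share of all genes was not computed, so this split describes the members only. In single air lungs from 1 to 28 days alone, 15.5% of all genes had such a p by edgeR. The 11 were Hnrnpa3, Hnrnpab, Hnrnpc, Hnrnpdl, Hnrnpf, Hnrnph1, Hnrnpll, Hnrnpr, Srsf1, Srsf3 and Srsf6. In Srsf6, which binds exonic enhancers, the log2 values ran from -0.075 to 0.067, and in Hnrnpll, a regulator of lymphocyte splicing, from -0.064 to 0.12. In Hnrnpc they ran from -0.50 to 0.59 without passing.

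Most members varied little between animals of a group. The SD of log2(CPM + 1) within groups was below 0.15 in 20 of 30 members, with a median of 0.12. Srsf1, an exon-definition factor, had the smallest, 0.079, against a median of 0.14 for genes of similar count. Hnrnpa2b1 had an SD of 0.20 against 0.041 from counting error, which is higher than in 75.4% of genes of similar count.

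Hnrnpab and Hnrnpc varied far more than counting allows. Hnrnpab, a CArG-box binding relative of the hnRNP A proteins, had an SD of 1.797 against 0.20 from counting error. Its level was 22.9, 16.96, 25.0, 18.6, 12.9 and 0 CPM in repeated air animals 34 to 40 at 1 day, and 5.20, 32.7, 0.877, 1.99, 17.4 and 8.32 CPM in repeated oil vapor animals 43 to 48. In 14 of the 48 libraries it was below 1 CPM, and its log2 fold change in that contrast was -0.52 (SE 0.77). Hnrnpc, which binds uridine-rich tracts, ranged from 9.50 to 50.3 CPM with an SD of 0.64 against 0.12. What sets high animals apart from low ones was not tested. Hnrnpr was 51.3 to 70.8 CPM in 47 libraries and 146 CPM in animal 43.

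**Figure D4:**
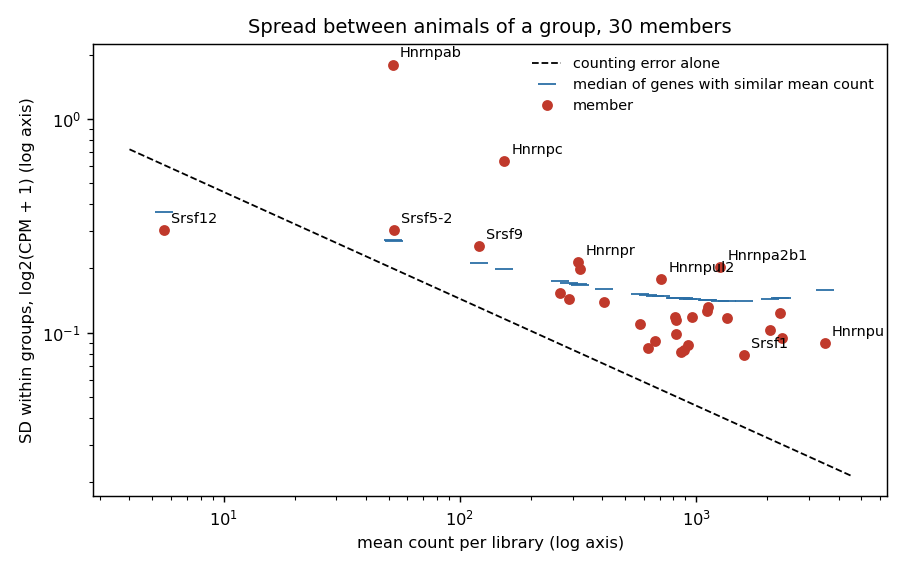
SD of log2(CPM + 1) between animals within groups (y axis, log) against the mean count per library (x axis, log) for the 30 members (red points), with the spread that counting alone would give (dashed line) and the median of genes of similar count (blue ticks). Hnrnpab (1.797) and Hnrnpc (0.64) lie far above the other members, and Hnrnpa2b1 (0.20) lies above the tick of its count.

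The wider splicing machinery gave few calls. In repeated oil vapor lungs at 1 day, 0 genes of 5 lists were called by edgeR, and those with an unadjusted p below 0.05 were all higher. They numbered 1 of 10 SR kinase and import genes, 5 of 17 SR-related genes, 10 of 35 other hnRNP-like and RNA-binding regulators, 7 of 52 spliceosome core genes and 1 of 9 genes of nonsense-mediated decay. Together these were 24 of 123 genes, or 19.5%, where 5.8% of all genes were higher, and the single gene of the kinase list and of the decay list is near that share. Median log2 fold changes were 0.06, 0.13, 0.08, 0.06 and 0.13, against 0.02 over all genes. These list values come from the fit with TMM size factors. They were not examined with library totals or without animal 43, which each lowered the median of the members in this contrast. The smallest p-values belonged to Prpf19, a spliceosome-activating ubiquitin ligase, at 0.24 (SE 0.06), to the poly(C)-binding Pcbp1 at 0.59 (SE 0.15) and to Khsrp, which promotes decay of AU-rich transcripts, at 0.50 (SE 0.13). Each had an adjusted p of 0.173 or 0.179 by edgeR.

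In repeated air lungs, U2af1, the small subunit of the factor that recognises the 3′ splice site, rose by 0.39 (SE 0.07, adjusted p = 0.0195 by edgeR) from 1 to 28 days. Sf3b4 of the U2 particle rose by 0.47 (SE 0.09, adjusted p = 0.0235 by edgeR). These were 2 of 123 genes in the lists, or 1.63%, where 0.267% of all genes were called higher. In single oil vapor lungs 6 genes of these lists rose from 1 to 28 days, 3 of 17 SR-related genes, 2 of 52 core genes and 1 of 10 kinase and import genes. At 4.88% of 123 genes this is near the 4.45% of all genes called higher. Examples are the SR-related Srrm2 at 0.23 (SE 0.05), the core protein Prpf8 at 0.19 (SE 0.04) and the SR kinase Clk1 at 0.27 (SE 0.06). In them Ptbp1, the polypyrimidine tract binding hnRNP I, fell by 0.23 in log2 units (SE 0.05, adjusted p = 0.00426 by edgeR) and Snrpb fell by 0.29 (SE 0.09, adjusted p = 0.0298 by edgeR). Ptbp1 also fell by 0.18 in log2 units in single air lungs (SE 0.05, adjusted p = 0.0456 by edgeR), and by 0.24 in air at 1 day on the repeated against the single schedule (SE 0.05, adjusted p = 0.00602 by edgeR). In that last comparison the paraspeckle protein gene Nono fell by 0.26 as well (SE 0.06, adjusted p = 0.0070 by edgeR). Falls called in these lists were below the share of all genes each time. They made up 1.63% of 123 genes in single oil vapor lungs, where 4.98% of all genes were called lower. The shares were 0.813 against 2.24% in single air lungs, and 1.61 against 2.61% in air between schedules at 1 day.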

How the data were processed

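Whole-number counts by symbol were deposited by the authors, 1 table of 24 columns for each schedule, and 0 columns belonged to no sample. HTSeq 0.6.1, HISAT2 2.1.0, Trimmomatic 0.35 and SAMtools 1.8 are named per the submitters' processing notes, with a rat build other than GRCr8. Neither annotation nor strand setting is given in the sources used here, and overlapping genes are uncertain. For animal 32 the description named the other table, and its title and column were followed.

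Groups came from the labels. Contrasts, 14 in all, were fitted with edgeR 4.0.16 in R 4.3.3 (TMM, filterByExpr, group means, two-sided quasi-likelihood test, Benjamini-Hochberg adjusted p below 0.05), on the 24 libraries of a schedule or on all 48 between schedules. Srsf12 did not pass filterByExpr, and 29 of 30 members were tested. SE is the absolute log2 value over the square root of F. The test was checked on simulated data. CPM used library totals. Alternatives were RLE, no filter, DESeq2 1.42.0, limma-voom (limma 3.58.1), 1 surrogate variable (sva 3.50.0), other library sets and leaving out animals. Leaving out animals between schedules and library totals without size factors were added after seeing the data. Hnrnpa2b1 was given in every comparison, with the members called or, where none was, up to 3 with the smallest p, and up to 3 genes of each splicing list. Hnrnph1 at 28 days and Hnrnpr were named after their values were seen. Members and lists were chosen with earlier results of these data known. Replicates are separate animals.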

Additional observations from a re-analysis of the deposited data

Results flagged for a closer look

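Values far from the other 5 animals of their group, by Dixon's criterion for 6 samples, were found 16 times in 248 examined sets of a member or the Hnrnpa2b1 ratio in a group. Chance flags about 1 in 20 groups. Of the 16, 8 belonged to animal 43, the shallow repeated oil vapor library at 1 day with the most erythroid transcripts. It was lowest in Hnrnpdl (155 CPM), Hnrnpll (26.7 CPM), Hnrnpul1 (135 CPM), Hnrnpul2 (98.9 CPM), Srsf2 (146 CPM), Srsf3 (121 CPM) and Srsf9 (8.46 CPM), and highest in Hnrnpr (146 CPM, against at most 65.0 CPM in the other 5 animals).

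In the single schedule, Hnrnpu was lowest in oil vapor animal 5 at 1 day (556 CPM), Hnrnpdl in oil vapor animal 24 at 28 days (158 CPM) and Srsf5 in air animal 23 at 28 days (338 CPM). On the repeated schedule, Srsf11 was highest in oil vapor animal 44 at 1 day (157 CPM) and Srsf12 in air animal 40 at 1 day (1.74 CPM). At 28 days after repeated oil vapor, Srsf10 was highest in animal 94 (123 CPM), Srsf5 lowest in animal 92 (374 CPM) and Srsf7 lowest in animal 89 (75.2 CPM).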

How the results depend on the processing

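Hnrnpa2b1 in repeated air at 28 against 1 day passed under every alternative run. In the repeated 1-day oil vapor contrast its log2 fold change passed with DESeq2 (0.45), limma-voom (0.44) and 1 surrogate variable (0.41). These called 3, 3 and 1 members against 0, and RLE, no filter, library totals and other library sets called none. DESeq2 also called its change of effect with time on that schedule (-0.53, 1 member), and DESeq2 and limma-voom each called 1 member, Srsf7, in the difference of the 1-day effect between schedules. For repeated against single air at 1 day, Hnrnpa2b1 did not pass with RLE or no filter (both -0.37, 0 members) or library totals (-0.35, 0 members), and 2 members were called by DESeq2, 3 by limma-voom, 3 with a surrogate variable and 2 without animals 5 and 43. In single lungs from 1 to 28 days, a surrogate variable called 1 member in air and no filter and library totals called 0 in oil vapor. Library totals called 1 member in repeated air over time. The change of effect with time turned to -0.13 with a surrogate variable after the single exposure (not called). Shares of all genes are given for the main edgeR fits only, so the member counts under these alternatives have none beside them.

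Leaving out 1 animal in turn gave 0 to 1 members and 0.41 to 0.51 for Hnrnpa2b1 in the repeated 1-day oil vapor contrast, 1 to 3 members in repeated air over time, 0 to 1 members in single oil vapor over time, 0 to 1 members and 0.50 to 0.67 in the 1-day difference between schedules, and 0 to 2 members and -0.46 to -0.29 in air between schedules. In single air over time Hnrnpa2b1 ranged from -0.038 to 0.13 and was not called. The causes were not tested. No paired analysis was possible because no labelled number is shared between groups, and a rank within a group does not pair animals. Depth limits Srsf12 (2 to 15 counts). Hnrnpab ranged from 0 to 165 counts, and its SD of 1.797 lay far above the 0.20 from counting error.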
